A study of Rattus norvegicus with 6 samples.

Results

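The mature microRNAs (miRNAs) rno-miR-1949, rno-miR-3068-3p, rno-miR-3068-5p, rno-miR-505-3p and rno-miR-326-3p of the rat heart were examined; the species prefix is left out from here on. They were picked by name because their counts scaled to a common library size (CPM), summed over all isoforms, were said to be higher early in reperfusion, so the comparison between the groups chose them and their own difference is given as a description, with no test. They are 5 of 1191 mature entries in the deposited tables, of which 699 carry miRBase names and the rest are predicted by the authors. Small RNA was sequenced from 3 wild-type hearts given 0.5 h without flow in the left anterior descending coronary artery, by ligation, and then 0.5 h of reperfusion (ischemia-reperfusion), and from 3 wild-type normal hearts. Normal hearts are labelled control. Whether normal rats had a sham operation, the strain, sex and age of the rats, and the part of the heart taken are not stated in the sources used. Nothing in the labels ties hearts of the groups to each other, and each heart is 1 library.

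A miRNA is cut from a hairpin precursor, and either arm (5p or 3p) can be kept and loaded into Argonaute, where bases 2 to 8 of the strand, the seed, pair with target messenger RNAs. Reads of a miRNA usually come as isoforms (isomiRs) that start or end a little away from the sequence listed in miRBase. An isomiR with another start has another seed, while one with another end keeps it. In the tables each miRNA therefore has a count for the exact listed sequence, a count for its most abundant sequence, and a count for all isoforms.

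The listed mature sequences are shown because the counts of exact and shifted sequences differed for some members. The seed is in capitals, 5′ to 3′, and each sequence is the same in the deposited table and in RefSeq (GRCr8).
miR-1949: uAUACCAGgaugucagcauaguu
miR-3068-3p: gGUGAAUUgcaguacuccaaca
miR-3068-5p: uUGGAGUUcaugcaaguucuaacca
miR-505-3p: gUCAACACuugcugguuucc
miR-326-3p: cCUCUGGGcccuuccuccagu
The 5 seeds are all different. No other entry of the tables shared a stretch of 15 bases with any of the 5. GC content was 66.7% for miR-326-3p and 39.1% to 50.0% for the other 4.

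The most abundant sequences listed for the members, given as DNA letters with bases 2 to 8 in capitals, show where the reads lie.
miR-3068-3p, most abundant: tGAATTGCagtactccaacattc
miR-3068-5p, most abundant: tTGGAGTTcatgcaagttctaact
miR-505-3p, most abundant: gTCAACACttgctggtttcctct
For miR-1949 and miR-326-3p the most abundant sequence was the listed one. For miR-505-3p it had the same start and 3 further bases at the 3′ end, so the seed was kept. For miR-3068-5p it had the same start, ended 1 base earlier and held C24T, counted from the 5′ end of the listed sequence. For miR-3068-3p it began 2 bases later and ended 3 bases later, and its bases 2 to 8 were GAATTGC in place of the listed seed GUGAAUU. A shifted start of this kind was found for 21 of the 305 tested miRBase-named miRNAs (6.89%), and a start 2 bases later for 4.

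The places of the members' genes were taken from RefSeq (GRCr8). Mir1949 lies on chromosome 18 inside Matr3, which codes for the nuclear RNA-binding protein matrin 3, and the small nucleolar RNA (snoRNA) gene Snora74a and its host transcript Snhg4 are listed close by. Mir505 lies on chromosome X and overlaps Mir3589 on the other strand. Mir326 lies on chromosome 1 inside Arrb1, the gene of beta-arrestin 1. The precursor of both miR-3068 arms lies on chromosome 6 inside Alkbh1, a nucleic acid demethylase gene. RefSeq gives that precursor's gene the symbol Snora58, an H/ACA snoRNA name, with Mir3068 as a synonym, although its type is miRNA. Of 466 miRNA genes in that table, 3 have a snoRNA symbol. The hairpins available for the members are printed to show where the mature sequences, in capitals, lie in them; in Mir326 the first stretch in capitals is miR-326-5p and the second miR-326-3p.
Mir1949, chr18:27429688-27429784, plus strand: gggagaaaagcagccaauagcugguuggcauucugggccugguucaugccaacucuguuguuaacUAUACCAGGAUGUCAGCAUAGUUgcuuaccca
Mir326, chr1:163266165-163266259, plus strand: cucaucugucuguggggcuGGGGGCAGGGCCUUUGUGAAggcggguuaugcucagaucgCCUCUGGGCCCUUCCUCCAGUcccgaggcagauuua

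The libraries of the groups differed in depth and make-up. Total all-isoform counts were 1376947 to 2814802 in ischemia-reperfusion libraries and 6963312 to 8429988 in normal libraries. Predicted entries took 13.6%, 7.87% and 5.46% of the counts in ischemia-reperfusion replicates 1 to 3 and 1.09% to 1.29% in normal libraries. All 7 heart muscle miRNAs on the marker list (the miR-1, miR-133, miR-208 and miR-499 families) were counted in every library, with 21.99% to 31.2% of counts in ischemia-reperfusion and 22.5% to 40.5% in normal libraries. The liver list (miR-122-5p, miR-122-3p, miR-192-5p, miR-194-5p) held 0.0836% to 0.178% in ischemia-reperfusion and 0.0602% to 0.101% in normal libraries, with miR-122-3p at 0. The neural list (miR-124-3p, miR-9a-5p, miR-9a-3p, miR-128-3p) held 0.0487% to 0.0591% in ischemia-reperfusion and 0.0791% to 0.0959% in normal libraries. The ranges overlapped for the heart muscle, liver, endothelial, smooth muscle and fibroblast, leukocyte, erythroid and skeletal muscle lists. They did not overlap for the neural list. Of the 4 neural miRNAs 2 were counted in all 6 libraries, and miR-9a-5p did not follow the list, at 80.9, 120.8 and 90.8 CPM in replicates 1 to 3 of ischemia-reperfusion, against 72.9, 73.7 and 77.3 CPM in normal replicates 1 to 3. Depth, the share of predicted entries and the summed level of the neural list moved with the group, and their part in the values that follow was not tested. In heart tissue, fewer cells of a type and less RNA per cell cannot be told apart.

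Across the 5 members, 4 had every ischemia-reperfusion library above every normal library in all-isoform CPM with TMM factors: miR-1949, miR-3068-3p, miR-326-3p and miR-505-3p, the last of which had a log2 ratio of -0.07 with upper-quartile factors. The same held for 7 of the 305 miRBase-named miRNAs that passed the filter on low counts (2.3%), the other 3 being miR-26b-5p, miR-7b and miR-9a-5p, which were named after their values were seen. All 5 members passed that filter, miR-1949 only through the ischemia-reperfusion libraries. The fifth member, miR-3068-5p, did not match its choice as a miRNA that was higher, since its libraries overlapped and its mean was lower after ischemia-reperfusion, or level with factors from miRBase-named miRNAs (log2 ratio 0.024). In counts of the most abundant sequence 3 members stood apart upward, against 13 of 305 (4.26%), and in counts of the exact sequence 2 did, against 11 of 305 (3.61%). In edgeR's quasi-likelihood test over 524 entries, 0.984% of miRBase-named miRNAs (3 of 305) and 33.4% of all tested entries were called higher after ischemia-reperfusion, as were 78.5% of predicted entries, and 13.8% of miRBase-named miRNAs (42 of 305) were called lower. These counts depend on the scaling and the libraries: 13 higher and 13 lower were called when miRBase-named miRNAs alone set the factors, 10 and 16 with plain totals, and 145 lower with upper-quartile factors. Without ischemia-reperfusion replicate 2, 8 were called lower. Libraries of ischemia-reperfusion lay below all normal ones for 38.7% of the 305 in all-isoform, 21.6% in exact and 24.3% in most abundant sequence counts. Since this contrast chose the members, nothing is read from their own share.

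**Figure D1:**
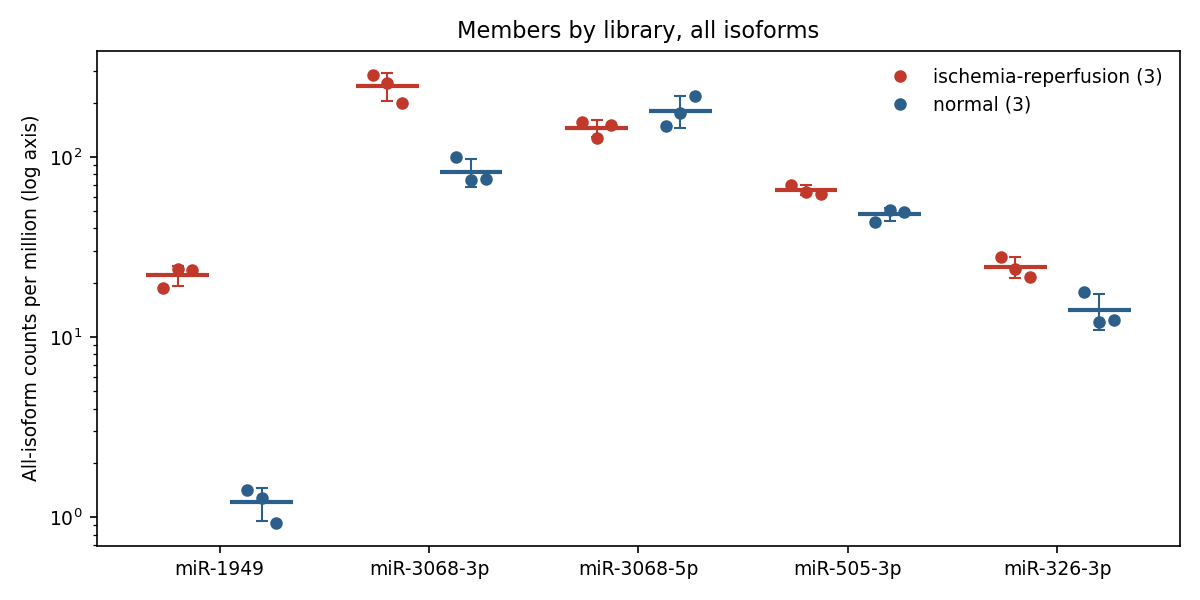
All-isoform CPM (log axis) of the 5 members, with 1 point per heart, a bar at the mean and the SD (TMM factors; with upper-quartile factors the log2 ratio of miR-505-3p is -0.07). The 3 ischemia-reperfusion hearts lie above the 3 normal hearts for every member but miR-3068-5p, and the gap is widest for miR-1949, at 18.8 to 23.8 against 0.925 to 1.42 CPM.

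miR-1949 had the highest ratio of all 305 tested miRBase-named miRNAs, a place that describes the choice of the members. It passed the filter on low counts only through the ischemia-reperfusion libraries. Its 9, 10 and 7 reads in the normal libraries fall short of the filter once scaled for depth. Its all-isoform level was 18.8, 23.8 and 23.5 CPM in ischemia-reperfusion replicates 1 to 3, against 1.42, 1.27 and 0.925 CPM in normal replicates 1 to 3. The groups were far apart, and the lowest ischemia-reperfusion heart was 13.2 times the highest normal heart. The means were 22.03 ± 2.83 CPM after ischemia-reperfusion and 1.21 ± 0.253 CPM in normal hearts (SD, n = 3 each), a ratio of 18.3, or 4.19 ± 0.21 on the log2 scale (SE). The normal values rest on few reads, namely 9, 10 and 7, against 29, 58 and 68 after ischemia-reperfusion, although the normal libraries were the deeper ones. Counting error alone gives the highest normal library a 95% Poisson interval of 0.648 to 2.69 CPM and the lowest ischemia-reperfusion library 12.6 to 26.96 CPM, given here only as the precision of these values.

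The difference in miR-1949 was in the listed sequence as well as in its isoforms. The exact sequence was at 12.3, 12.3 and 13.5 CPM in replicates 1 to 3 of ischemia-reperfusion, against 1.10, 0.764 and 0.528 CPM in normal replicates 1 to 3. Its share of the miRNA's own reads was 58.2% ± 6.94 after ischemia-reperfusion and 65.0% ± 11.2 in normal hearts (SD, n = 3 each), which overlap. The other isoforms averaged 9.33 ± 2.59 CPM after ischemia-reperfusion and 0.407 ± 0.0976 CPM in normal hearts (SD, n = 3 each). In abundance miR-1949 was rank 208 of 699 miRBase-named miRNAs by mean CPM over the 6 libraries, a mean that pools both groups. The authors' deposited table gives it a fold of 3.0 from group means of 32.0 after ischemia-reperfusion and 10.7 in normal hearts, means that carry an added 10. In the authors' normalized values without that addition, the normal hearts were listed at 1, 1 and blank.

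miR-3068-3p, the 3p arm of the precursor that RefSeq names Snora58, was 2.98 times as high after ischemia-reperfusion in all-isoform CPM. It stood at 286, 255 and 199 CPM in replicates 1 to 3 of ischemia-reperfusion, against 99.4, 73.9 and 74.9 CPM in normal replicates 1 to 3. Every ischemia-reperfusion heart was at least 2.00 times every normal heart. The means were 247 ± 44.0 CPM after ischemia-reperfusion and 82.7 ± 14.4 CPM in normal hearts (SD, n = 3 each), a log2 ratio of 1.58 ± 0.21 (SE).

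The isoforms of miR-3068-3p did not move together. The listed sequence was at 14.2, 16.9 and 19.3 CPM in replicates 1 to 3 of ischemia-reperfusion, against 23.5, 14.9 and 15.2 CPM in normal replicates 1 to 3, and the groups overlapped. The shifted sequence, which starts 2 bases later, was at 124.9, 101.9 and 61.8 CPM in replicates 1 to 3 of ischemia-reperfusion, against 7.72, 7.26 and 7.53 CPM in normal replicates 1 to 3. The normal hearts were nearly equal and the lowest ischemia-reperfusion heart was 8.01 times the highest of them. The means of the shifted sequence were 96.2 ± 31.9 CPM after ischemia-reperfusion and 7.50 ± 0.231 CPM in normal hearts (SD, n = 3 each), a ratio of 12.8 and a log2 ratio of 3.68 ± 0.28 (SE). The listed sequence had a ratio of 0.941 (log2 ratio -0.09 ± 0.26, SE), a sign that turned under RLE scaling (0.0069), with plain totals (0.15) and when miRBase-named miRNAs alone set the factors (0.24). Isoforms other than these averaged 133.8 ± 14.6 CPM after ischemia-reperfusion and 57.4 ± 9.39 CPM in normal hearts (SD, n = 3 each), a ratio of 2.33.

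As a share of the reads of miR-3068-3p itself, which does not depend on scaling between libraries, the shifted sequence made up 43.7%, 39.9% and 31.02% in ischemia-reperfusion replicates 1 to 3, against 7.77%, 9.83% and 10.1% in normal replicates 1 to 3. The lowest ischemia-reperfusion library has an exact 95% binomial interval that starts at 27.3%, and that of the highest normal library ends at 12.8%. These intervals cover counting error within a library, not the spread between hearts, and are given only as the precision of these shares. The listed sequence made up 7.10% ± 2.40 after ischemia-reperfusion and 21.4% ± 1.96 in normal hearts (SD, n = 3 each). After ischemia-reperfusion the shifted sequence was counted more often than the listed one in every heart (193, 248 and 179 reads against 22, 41 and 56), and in normal hearts it was counted less often (49, 57 and 57 reads against 149, 117 and 115). Over the 305 tested miRBase-named miRNAs the share of the most abundant sequence differed by a median of 1.33 percentage points (ischemia-reperfusion minus normal), and miR-3068-3p differed by 28.99 points, with 9 of the 305 higher. The shifted sequence is part of the all-isoform counts that chose this member, so its share and this place are a description only. The column for the most abundant sequence refers to 1 sequence per miRNA for all libraries, so it need not be the most abundant in each group.

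**Figure D2:**
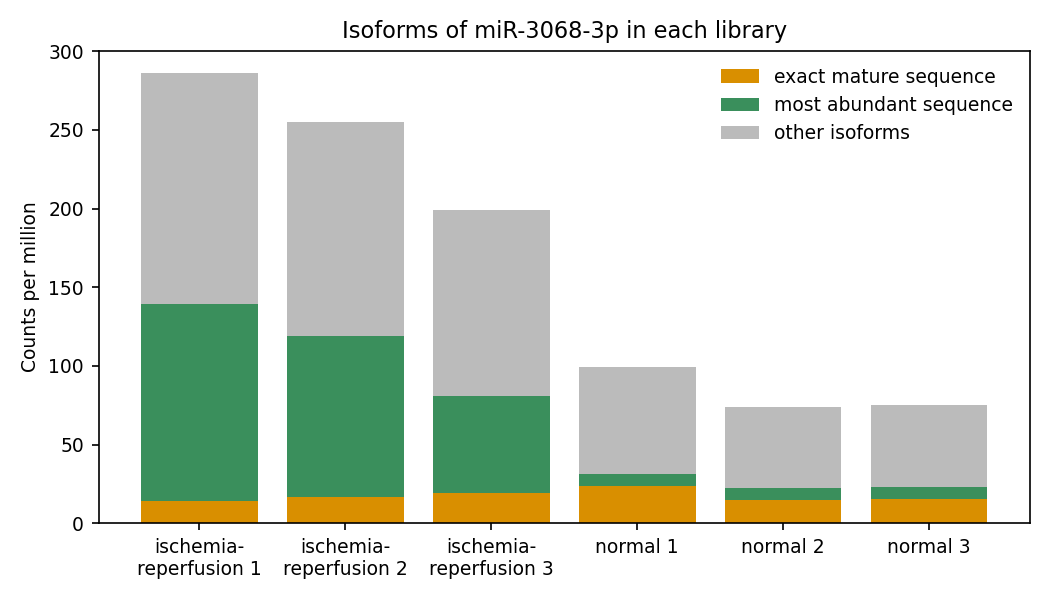
CPM of miR-3068-3p in each library, split into the exact listed sequence, the most abundant sequence (which starts 2 bases later) and all other isoforms. The most abundant sequence is at 61.8 to 124.9 CPM after ischemia-reperfusion and at 7.26 to 7.72 CPM in normal hearts, while the exact sequence is at 14.2 to 19.3 and 14.9 to 23.5 CPM.

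The 3′ end of the shifted sequence was also set beside the H/ACA name that RefSeq gives the precursor, with the sequence already known. H/ACA snoRNAs carry the letters ACA exactly 3 bases before their 3′ end, and the shifted sequence ends in ACA followed by 3 bases. Searched on the given strand only, as ACANNN at the very end of the sequence, this was found in 8 of 527 most abundant sequences of miRBase-named miRNAs (1.52%) and in 23 of 1012 over all entries (2.27%). Both counts include the shifted sequence itself. A match of this kind is a description of the letters, not of where the RNA came from, which was not tested. Of the other RefSeq miRNA genes with a snoRNA symbol, Snora36c (the precursor of miR-664-1) has entries in the tables. miR-664-3p, which was added after the values of miR-3068-3p were seen, was at 16.5 ± 6.75 CPM after ischemia-reperfusion and 30.2 ± 12.6 CPM in normal hearts (SD, n = 3 each). It did not pass edgeR's test over all entries (log2 fold change -0.86 ± 0.43, SE; adjusted p = 0.161), and passed as lower with upper-quartile factors (adjusted p = 0.0284). miR-664-1-5p had no counts.

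miR-3068-5p, the other arm of the same precursor, was at 156.0, 126.6 and 149.5 CPM in replicates 1 to 3 of ischemia-reperfusion, against 147, 175 and 219 CPM in normal replicates 1 to 3. The groups overlapped, since ischemia-reperfusion replicates 1 and 3 were above normal replicate 1. The means were 144.0 ± 15.4 CPM after ischemia-reperfusion and 180.5 ± 36.0 CPM in normal hearts (SD, n = 3 each), a ratio of 0.798 and a log2 ratio of -0.33 ± 0.19 (SE). With factors from miRBase-named miRNAs the log2 ratio was 0.024. The authors' deposited table gives a fold of 0.966. Its most abundant sequence was at 33.4 ± 3.15 CPM after ischemia-reperfusion and 44.0 ± 12.3 CPM in normal hearts, and it made up 23.2% ± 0.536 and 24.2% ± 3.26 of the reads of this arm in these groups (SD, n = 3 each). The exact sequence was rare, with 2, 7 and 2 reads after ischemia-reperfusion and 8, 12 and 19 in normal hearts.

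The balance of the arms also differed. Within a library, miR-3068-3p had 1.83, 2.02 and 1.33 reads for each read of miR-3068-5p in ischemia-reperfusion replicates 1 to 3, against 0.675, 0.421 and 0.342 in normal replicates 1 to 3. The 3p arm was the more frequent arm in every ischemia-reperfusion heart and the less frequent in every normal heart. This ratio is taken within a library and is free of scaling factors, but the all-isoform change of the 3p arm, which chose that member, is part of it.

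**Figure D3:**
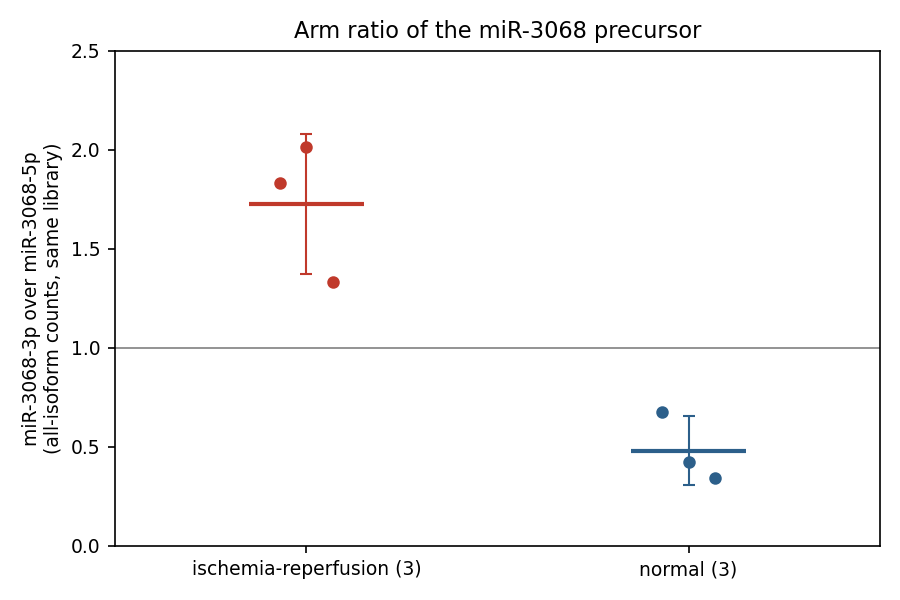
Reads of miR-3068-3p for each read of miR-3068-5p in the same library (all isoforms), with 1 point per heart, a bar at the mean and the SD; the grey line marks equal reads. The ischemia-reperfusion hearts lie at 1.33 to 2.02 and the normal hearts at 0.342 to 0.675, on either side of the line.

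miR-326-3p, which represses Notch pathway genes in human glioma cells and has been studied in mouse T helper cells, was at 27.8, 23.8 and 21.4 CPM in replicates 1 to 3 of ischemia-reperfusion, against 17.8, 12.1 and 12.4 CPM in normal replicates 1 to 3. The groups did not overlap, though the closest hearts differed by a factor of 1.20. The means were 24.4 ± 3.24 CPM after ischemia-reperfusion and 14.1 ± 3.20 CPM in normal hearts (SD, n = 3 each), a ratio of 1.73 and a log2 ratio of 0.79 ± 0.22 (SE). Here the exact sequence, which was also the most abundant one, showed the larger ratio. It was at 11.002, 13.6 and 12.4 CPM in replicates 1 to 3 of ischemia-reperfusion, against 6.93, 4.84 and 4.89 CPM in normal replicates 1 to 3, a ratio of 2.22 (log2 ratio 1.15 ± 0.20, SE). These are 17, 33 and 36 reads after ischemia-reperfusion and 44, 38 and 37 reads in normal hearts. The other isoforms averaged 12.03 ± 4.21 CPM after ischemia-reperfusion and 8.55 ± 2.01 CPM in normal hearts (SD, n = 3 each) and overlapped. The exact sequence made up 39.5%, 56.9% and 58.1% of the reads in ischemia-reperfusion replicates 1 to 3 and 38.9% to 40.0% in normal hearts, so replicate 1 lay within the normal range.

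miR-330-5p carries the same seed as miR-326-3p, CUCUGGG, and was the only other miRBase-named miRNA of the tables to share a seed with a member. Side by side the pair reads as follows, with the seed in capitals.
miR-326-3p: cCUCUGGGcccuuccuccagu
miR-330-5p: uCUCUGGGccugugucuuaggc
miR-330-5p was at 19.4, 18.5 and 23.1 CPM in replicates 1 to 3 of ischemia-reperfusion, against 17.2, 26.9 and 39.6 CPM in normal replicates 1 to 3, and the groups overlapped. It was not chosen by its change and did not pass edgeR's quasi-likelihood test over all entries (log2 fold change -0.45 ± 0.37, SE; adjusted p = 0.356), nor DESeq2 (adjusted p = 0.531). Whether the changes of miR-326-3p and miR-330-5p differ was not tested. The opposite arm of miR-326-3p, miR-326-5p, had no counts in any library.

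miR-505-3p, which represses the splicing factor SRSF1 in mouse embryonic fibroblasts, had the smallest difference among the 4 members that stood apart. It was at 69.9, 63.7 and 62.5 CPM in replicates 1 to 3 of ischemia-reperfusion, against 43.6, 50.6 and 49.5 CPM in normal replicates 1 to 3. The spread within groups was small, and the closest hearts differed by a factor of 1.24. The means were 65.4 ± 3.97 CPM after ischemia-reperfusion and 47.9 ± 3.74 CPM in normal hearts (SD, n = 3 each), a ratio of 1.36 and a log2 ratio of 0.45 ± 0.08 (SE), which became -0.07 with upper-quartile factors. The difference was in isoforms other than the listed and the most abundant sequence, which averaged 49.6 ± 3.37 CPM after ischemia-reperfusion and 34.0 ± 3.86 CPM in normal hearts (SD, n = 3 each). The most abundant sequence, 3 bases longer than the listed one, was at 20.1, 10.3 and 15.5 CPM in replicates 1 to 3 of ischemia-reperfusion, against 13.4, 12.6 and 15.7 CPM in normal replicates 1 to 3, and overlapped. The listed sequence itself was counted in 1 library only, with 2 reads in ischemia-reperfusion replicate 1, so no ratio is given for it. A count of 0 allows up to 0.396 CPM in normal replicate 3. The opposite arm, miR-505-5p, had 0 reads in each ischemia-reperfusion library and 5, 3 and 3 in normal libraries, and did not pass the filter. At the depth of the shallowest ischemia-reperfusion library 3 reads correspond to 1.94 CPM. This is above the 0.382 to 0.788 CPM of miR-505-5p in normal hearts, so a lower level of this arm after ischemia-reperfusion was not detectable.

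**Figure D4:**
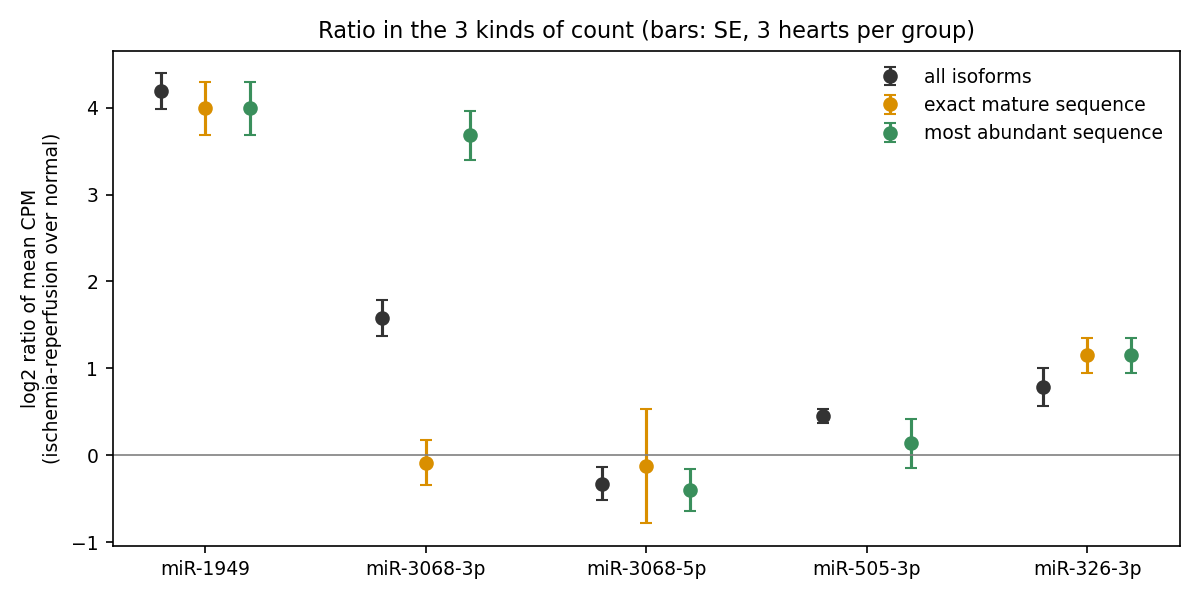
Log2 ratio of mean CPM, ischemia-reperfusion over normal, of each member in all-isoform, exact and most abundant sequence counts, with SE bars from 3 hearts per group (no point for the exact sequence of miR-505-3p). For miR-3068-3p the exact sequence lies at -0.09 and the most abundant at 3.68, while for miR-1949 and miR-326-3p these counts are of the same sequence.

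Scaling shifts the ratios together, so the members were also set against the other miRNAs. The median log2 ratio over the 305 tested miRBase-named miRNAs was -0.40 with TMM factors, -0.29 with RLE factors, -0.90 with upper-quartile factors, -0.17 with plain totals and -0.07 when miRBase-named miRNAs alone set the factors. Relative to that median, under TMM, miR-1949 lay 4.60 higher on the log2 scale, miR-3068-3p 1.98, miR-326-3p 1.19, miR-505-3p 0.85 and miR-3068-5p 0.08. Over the 5 scalings these distances covered 4.58 to 4.60, 1.93 to 2.00, 1.15 to 1.21, 0.83 to 0.87 and 0.06 to 0.09. Since scaling moves a member and the median almost alike, these narrow ranges follow largely from the calculation. By size of the ratio under TMM, miR-1949 was rank 1, miR-3068-3p rank 4, miR-326-3p rank 9, miR-505-3p rank 16 and miR-3068-5p rank 125 of the 305. The members were chosen on these ratios, so the ranks describe the choice.

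**Figure D5:**
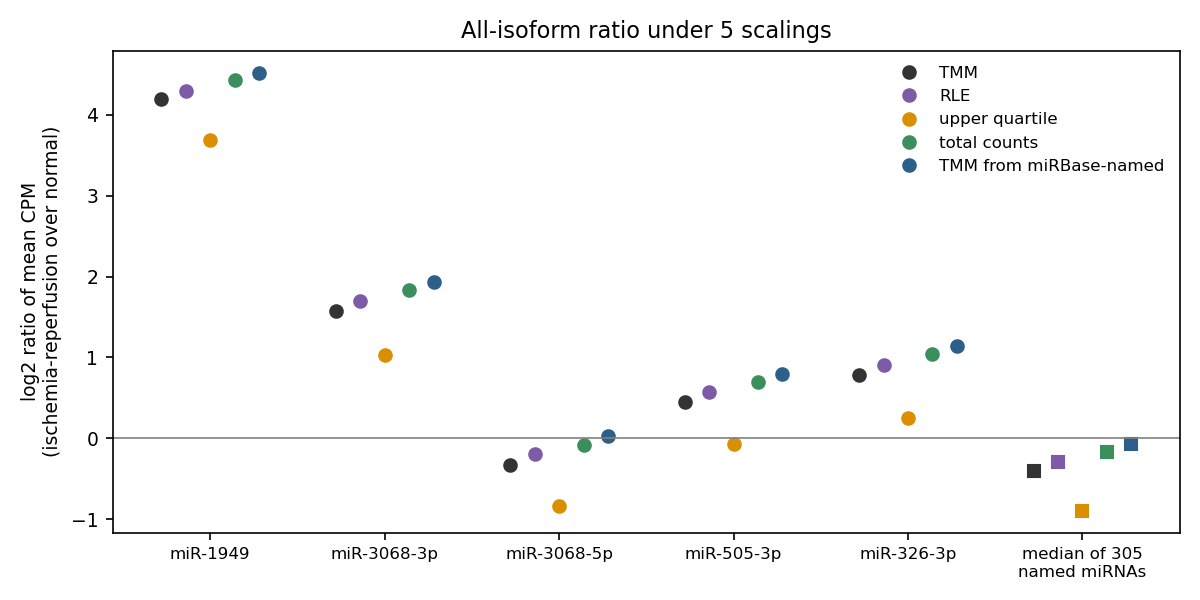
Log2 ratio of mean all-isoform CPM, ischemia-reperfusion over normal, of the 5 members (circles) and the median of the 305 tested miRBase-named miRNAs (squares) under 5 scalings. The members shift together with the median, and miR-505-3p falls to -0.07 with upper-quartile factors and miR-3068-5p rises to 0.024 with factors from miRBase-named miRNAs.

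The order of the levels differed between the groups. After ischemia-reperfusion it was miR-3068-3p (247 CPM), miR-3068-5p (144.0), miR-505-3p (65.4), miR-326-3p (24.4) and miR-1949 (22.03), and the last pair overlapped, at 21.4 to 27.8 and 18.8 to 23.8 CPM. In normal hearts it was miR-3068-5p (180.5 CPM), miR-3068-3p (82.7), miR-505-3p (47.9), miR-326-3p (14.1) and miR-1949 (1.21), with no overlap between neighbours.

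For each member, the pair of other tested miRBase-named miRNAs with the most similar log2(CPM + 1) profile over the 6 libraries was listed, as a description of 6 libraries that differ in group and depth together. miR-26b-5p was among them for miR-1949 (Pearson r = 0.86), miR-3068-3p (0.85) and miR-326-3p (0.89), at 4963 ± 215 CPM after ischemia-reperfusion and 4202 ± 368 CPM in normal hearts (SD, n = 3 each). The second for miR-1949 was miR-23a-3p (0.79), at 1965 ± 333 CPM after ischemia-reperfusion and 1330 ± 367 CPM in normal hearts (SD, n = 3 each). miR-122-5p, which is abundant in hepatocytes, was the closest for miR-3068-3p (0.90) and miR-326-3p (0.91). Its level was 867, 510 and 79.1 CPM in ischemia-reperfusion replicates 1 to 3, against 82.5, 38.5 and 30.4 CPM in normal replicates 1 to 3. For miR-505-3p the closest were miR-26a-5p (0.84) and miR-490-5p (0.83). miR-3068-5p had the closest match of all, miR-490-3p (0.99), at 372 ± 38.6 CPM after ischemia-reperfusion and 458 ± 105 CPM in normal hearts (SD, n = 3 each), followed by miR-6329 (0.97).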

How the data were processed

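Small RNA libraries were made from Trizol-extracted RNA by adaptor ligation, PCR and size selection and run on an Illumina NextSeq, per the labels' protocols. Novoalign 2.07.11 is named in the submitters' processing notes; its role, the build and the miRBase release are not stated in the sources used. The authors deposited raw tag counts per library (blank cells were read as 0; the smallest listed count is 2), a normalized score in whole numbers, and a comparison table with group means as a score with 10 added and their ratio (fold), per the file headers; 18 columns of per-library values repeated in that table were not used. For a mature ID with more than 1 precursor, the entry with the most counts was used. R 4.3.3 with edgeR 4.0.16 was used: filterByExpr (minimum count 10), TMM, robust quasi-likelihood F test, Benjamini-Hochberg adjustment over all 524 tested entries at 0.05. CPM of each kind of count use the all-isoform total times the TMM factor. Ratios are of mean CPM, with SE from the replicate SDs. Intervals and floors (3 reads) cover counting error only, as PCR copies were not told apart by molecular identifiers. The p-values set the difference between the groups against the spread between libraries within a group, and depth differed with the group. The test was tried on simulated data. Members, lists and tests were chosen with earlier results of these data known. Named miRNAs are the members, opposite arms, seed mates and, per member, the pair of most similar profiles; others were named after their values were seen. Alternatives were other scalings, no filter, DESeq2 1.42.0, the other kinds of count, a replicate block, each library left out, and the authors' normalized table.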

Additional observations from a re-analysis of the deposited data

How the results depend on the processing

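Under 11 alternatives to the scaling and the libraries, the all-isoform log2 ratios stayed positive for miR-1949 (3.69 to 5.04), miR-3068-3p (1.03 to 1.93) and miR-326-3p (0.25 to 1.17). For miR-505-3p the all-isoform log2 ratio ranged from -0.072 to 0.80 and was negative only with upper-quartile factors. That of its most abundant sequence also turned with those factors (-0.40), and ranged from -0.11 to 0.36 without single libraries. For miR-3068-5p the all-isoform ratio was 0.024 when miRBase-named miRNAs alone set the factors. The exact sequence of miR-3068-3p (-0.09) turned to 0.0069 with RLE factors, 0.15 with total counts, 0.24 with factors from miRBase-named miRNAs and 0.12 in the authors' normalized table, and ranged from -0.20 to 0.16 without single libraries. That of miR-3068-5p (-0.12, from 11 reads after ischemia-reperfusion and 39 in normal hearts) turned to 0.012, 0.14, 0.25 and 0.32 under the same 4 settings, and ranged from -0.83 (without ischemia-reperfusion replicate 2) to 0.24. The cause was not tested.

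The count of all entries called higher (175) became 266 with no filter, 25 in exact sequence counts and 89 in most abundant sequence counts. The count of miRBase-named miRNAs called higher (3) became 10 with total counts, 13 with factors from miRBase-named miRNAs, 8 with no filter, 7 with DESeq2, 6 in exact and 5 in most abundant sequence counts, and ranged from 2 to 7 without single libraries (7 without ischemia-reperfusion replicate 3, 5 without normal replicate 1). The count called lower (42) became 145 with upper-quartile factors, 16 with total counts, 13 with factors from miRBase-named miRNAs, 13 in exact and 24 in most abundant sequence counts, and ranged from 8 (without ischemia-reperfusion replicate 2) to 67 (without normal replicate 1), with 21 without ischemia-reperfusion replicate 1, 19 without normal replicate 2 and 27 without normal replicate 3. Samples of the groups share only a replicate number, and their deviations did not go together (r = -0.25, 0.0084 and -0.19 for pairs 1 to 3). With the replicate number as a block 15 were called lower, while miR-330-5p stayed short of the threshold (adjusted p = 0.455). miR-330-5p kept its sign and its side of the threshold under the alternatives run, except that exact sequence counts gave no value. In edgeR's test it came close to the threshold with upper-quartile factors (log2 fold change -0.94, adjusted p = 0.0568). With factors from miRBase-named miRNAs it was far from it (-0.11, adjusted p = 0.877). Depth limits the low counts most: 7 to 10 reads of miR-1949 in normal hearts, and the arms miR-505-5p and miR-326-5p.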
